A study of Mus musculus with 2 samples.

Results

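The genes described here encode proteins found in plasma, most of them secreted by liver, fetal liver or yolk sac, and in Neuro2a cells transfected with siRNA against Cpeb1 (siCPEB1) the signals of Afp, Ttr and F13a1 were several-fold above those of cells transfected with control siRNA (siControl). For Afp and Ttr every siControl signal was below the median of its array, so the size of their increase rests on dim signals. With that median in place of the dim signal, the Ttr probe sets were at least 1.24- to 2.64-fold higher. The members are Afp, Ttr, Alb, Apoa1, Apob, Apoe, Rbp4, Trf, Ambp and F13a1, and every probe set that the platform annotation assigns to only 1 of them was taken. This gave 20 of 45037 probe sets and 9 of the 18193 genes that a probe set names alone. For Trf, which encodes the iron carrier transferrin, the single probe set found is shared with the neighbouring annotation Srprb, so no value is given. The group was chosen by results of these same arrays, with the increases of Afp, Ttr and F13a1 already known, so its ratios are a description and no test stands behind them.

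Neuro2a is an established line of mouse neuroblastoma cells, which resemble immature sympathetic neurons. Both groups were grown in the same medium, which contained fetal bovine serum, and differed in the siRNA introduced by lipid transfection. Each group is 1 sample taken after 24 h of control siRNA or Cpeb1 siRNA. For its 1 Affymetrix array, 100 ng of its total RNA was used. CPEB1 is an RNA-binding protein that recognizes an element near the 3′ end of mRNAs and regulates polyadenylation, storage and translation, and these arrays compare transcripts with and without its knockdown.

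In the embryo, Afp is the main plasma protein of fetal liver and yolk sac, and after birth albumin takes its place while Afp is silenced. Albumin, transthyretin and retinol-binding protein carry fatty acids, thyroid hormone and vitamin A, the apolipoproteins build lipoprotein particles, and alpha-1-microglobulin and bikunin are cut from the product of Ambp. In liver, most of these genes are driven by transcription factors such as HNF4, FOXA and C/EBP. Other cells also make some of them: choroid plexus makes Ttr, macrophages and astrocytes make Apoe, fat makes Rbp4, oligodendrocytes make Trf, and macrophages and megakaryocytes make F13a1.

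Each value is a MAS5 signal, an intensity on a linear scale with no unit, and ratios are log2 of siCPEB1 over siControl. The siControl array had a median of 21.05 and a 25th percentile of 5.07, and the siCPEB1 array 21.6 and 5.62. To pass the filter, a probe set had to be at or above the median of 1 array while staying at or above the 25th percentile of the other, as 23655 of 45037 were. Because each condition has a single array, no p-value can be given, and every ratio also contains whatever differs between any 2 samples. As a guide to precision, the pooled SD of the log2 ratio among probe sets sharing a gene was 0.30 when both signals were at or above the median (5035 genes). Among probe sets that passed with 1 of the signals below the median, the SD was 0.77 (130 genes). With both signals below the median it was 1.69 (2743 genes). Probe sets with only 1 signal below the median that failed the filter are in none of these classes. Cpeb1, the targeted gene, fell from 302 to 38.5, a log2 ratio of -2.97. Of 16 genes of sympathetic neuroblasts and neurons with a probe set, 13 passed the filter, 5 of them more than 2-fold higher in siCPEB1 and none more than 2-fold lower. By probe set, 5 of the 20 that passed in this list were higher, against 4.49% of all that passed. Phox2a, a transcription factor of these cells, had 565 in siControl and 1443 in siCPEB1, while Stmn2, a protein of growing axons, had 2556 and 2080 at its brighter probe set. Th, which makes catecholamines, did not pass, with 18.6 and 17.9. Besides Phox2a, the genes past 2-fold were Ddc (313 and 746), Gata3 (46.0 and 172), Chgb (1498 and 3073) and Dbh. At its passing probe sets Dbh had 26.2 and 53.1, and, within 2-fold, 96.3 and 169.

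Of the 20 probe sets, 6 passed the filter on signal, and they belong to Afp, Ttr, Rbp4 and F13a1. Of these 6, 5 were more than 2-fold higher in siCPEB1, against 4.49% of all probe sets that passed. None was more than 2-fold lower, against 4.04% of all. A probe set that was dim in siControl can pass only through a high siCPEB1 signal, so the 5 are no sample of the whole group. Without the filter, 14 of 20 were more than 2-fold higher, against 14.2% of all probe sets, and 1 was more than 2-fold lower, against 11.8%. The 14 belong to Afp, Ttr and F13a1, known to be higher when the group was chosen, and to Alb, Apoa1 and Apob. Those of Alb, Apoa1 and Apob had both signals below the array median. Of all probe sets with such signals, 24.6% were more than 2-fold higher. The siControl signal lay below the array median in 18 of 20 probe sets and below the 25th percentile in 12, while the siCPEB1 signal lay below its median in 11 and below its 25th percentile in 5. In siControl, therefore, only Rbp4 and F13a1 had a signal at or above the median. The median log2 ratio over the 20 was 2.45, and over all probe sets it was 0.04. With 16 added to both signals, the median over the 20 was 0.49, so its size rests on dim signals.

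**Figure D1:**
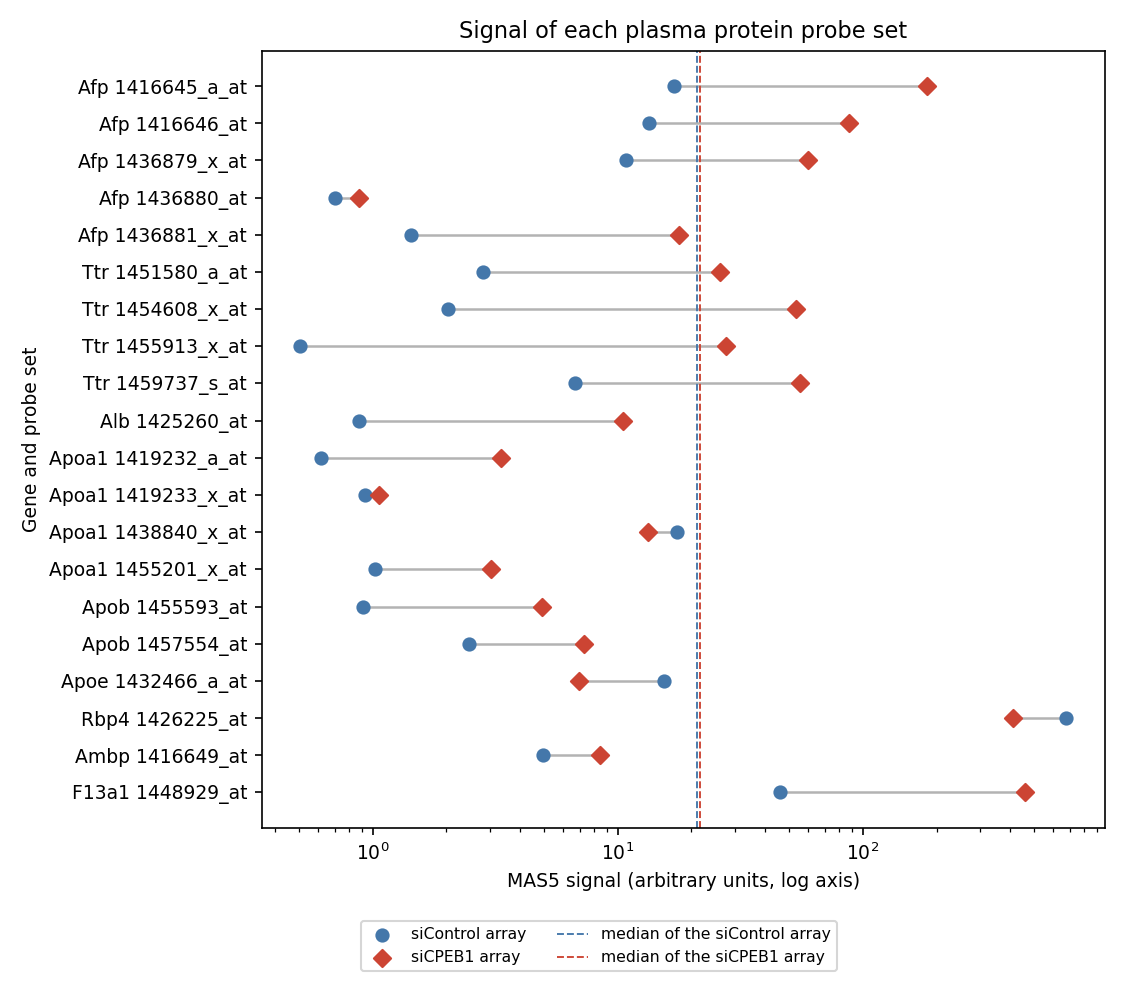
MAS5 signal (log axis) of each of the 20 probe sets in the siControl array (circles) and in the siCPEB1 array (diamonds), with dashed lines at the median of each array. The Afp, Ttr and F13a1 diamonds lie to the right of their circles, whereas the Rbp4 diamond lies to the left, at 412 against 678.

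Afp, alpha-fetoprotein, was measured by 5 probe sets, each with a log2 ratio above 0. At 1416645_a_at the signal was 16.9 in siControl and 182 in siCPEB1 (log2 ratio 3.43). At 1416646_at, whose target is the same RefSeq transcript, it was 13.4 and 88.2 (log2 ratio 2.72). At 1436879_x_at, designed on an expressed sequence tag, it was 10.8 and 59.7 (log2 ratio 2.47). These 3 probe sets passed the filter, and their ratios had an SD of 0.50. All 3 siControl signals were below the array median and all 3 siCPEB1 signals above it, so the size of the fold rests on dim siControl signals. With the siControl signal raised to the median, they were at least 8.66-, 4.19- and 2.83-fold higher. The remaining Afp probe sets, both designed on the same sequence tag, did not pass. Of these, 1436881_x_at had 1.43 and 17.7, and 1436880_at had 0.698 and 0.882, so the latter was near the bottom of the range in both arrays.

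By the signals of its brightest probe set, Afp lay nearest to Rab40b (17.5 in siControl and 122 in siCPEB1), Tmc7 (22.6 and 133) and Cntnap2 (14.8 and 107), with 18192 genes compared on the log2 scale over 2 arrays. Distances were 0.575, 0.617 and 0.792. With 2 arrays this likeness says only that the pairs of signals were alike.

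Alb, serum albumin, is the neighbour of Afp in the RefSeq gene order, and it was measured by 1 probe set. Its signals were 0.875 in siControl and 10.5 in siCPEB1, a log2 ratio of 3.59. Both signals were below the array median, at percentiles 6.7 and 36.2 of their arrays, and the probe set did not pass. Of all probe sets with both signals below the median, 24.6% were more than 2-fold higher in siCPEB1, and among the 11 such probe sets of the group, 6 were. Afm, the afamin gene on the other side of Afp, had 26.3 and 7.90 at 1 probe set (log2 ratio -1.73, at least 1.21-fold lower with the siCPEB1 signal raised to the median) and 26.1 and 24.1 at the other. Of the 3 neighbours, Alb and Afp thus had ratios above 0 and Afm had ratios below 0. Ankrd17, the neighbour of Alb on its far side, passed at 4 of 6 probe sets with log2 ratios from -0.01 to 0.50.

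The start regions of Afp and Alb are shown because both genes belong to the same cluster and are classical targets of liver transcription factors. The sequences are the 250 bases before the annotated start in RefSeq GRCm38.p6, 5′ to 3′ on the coding strand, at chr5:90490464-90490713 (plus strand) for Afp and chr5:90460620-90460869 (plus strand) for Alb. Capitals mark matches on either strand to TGTTTGC and TGTTTAC (forkhead cores), TATAAA and CCAAT, and positions count back from -1, the base before the start.
Afp: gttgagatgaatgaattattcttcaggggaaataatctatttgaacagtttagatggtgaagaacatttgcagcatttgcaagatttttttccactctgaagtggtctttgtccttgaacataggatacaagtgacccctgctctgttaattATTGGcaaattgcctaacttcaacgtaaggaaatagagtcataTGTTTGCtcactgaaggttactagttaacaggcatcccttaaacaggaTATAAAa
Alb: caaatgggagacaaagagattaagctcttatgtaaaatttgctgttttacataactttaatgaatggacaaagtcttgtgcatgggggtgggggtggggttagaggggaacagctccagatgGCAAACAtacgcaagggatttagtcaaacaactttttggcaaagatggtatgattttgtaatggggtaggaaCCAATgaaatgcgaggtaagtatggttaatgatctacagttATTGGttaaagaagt
In Afp, TGTTTGC lies from -55 to -49, CCAAT on the other strand from -98 to -94 and TATAAA from -7 to -2. In Alb, TGTTTGC lies on the other strand from -128 to -122 and CCAAT from -56 to -52 and, on the other strand, from -15 to -11. Of 32851 RefSeq start regions of this length, TGTTTGC occurred in 4.30%, TGTTTAC in 3.17%, TATAAA in 12.4% and CCAAT in 33.8%. Of the 12 start regions of the group, which cover 8 genes and leave out Ttr and Trf, 5, 1, 4 and 5 held them. TGTTTGC was before Afp, Alb, Apoa1, Apob and Ambp, and of these genes only Afp had probe sets that passed the filter. The letters were chosen after these start regions had been read, and a match is a run of letters, not a measured binding site.

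Ttr, transthyretin, was measured by 4 probe sets, and all 4 were more than 2-fold higher in siCPEB1. At 1459737_s_at the signal was 6.68 in siControl and 55.6 in siCPEB1 (log2 ratio 3.06). At 1454608_x_at it was 2.02 and 53.5 (log2 ratio 4.73). At 1455913_x_at it was 0.505 and 27.7 (log2 ratio 5.78), and at 1451580_a_at it was 2.82 and 26.1 (log2 ratio 3.21). Every siControl signal was below the array median, at percentiles from 3.3 to 29.2, and every siCPEB1 signal was above it, at percentiles from 53.0 to 62.5. Only 1459737_s_at passed the filter, because the siControl signals of the others lay below the 25th percentile. Raised to the median, the siControl signals gave at least 2.64-, 2.54-, 1.31- and 1.24-fold higher values in the order above. Names ending in _x_at or _s_at mark probe sets that can match other transcripts and _a_at those that match transcripts of the same gene, and Ttr has no probe set without such a mark, so these 4 are not independent of cross-hybridization or of each other.

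With dim signals raised to the median and no filter, 6 of the 20 probe sets were more than 2-fold higher, against 1.55% of all. They were 3 of Afp, 2 of Ttr and that of F13a1. The increases of these genes were known when the group was chosen, so this share is a description and no test. By signal, the genes nearest to Ttr were Ttc25 (6.16 in siControl and 45.8 in siCPEB1), Jakmip3 (5.44 and 52.0) and Plppr3 (7.36 and 45.4), at distances of 0.302, 0.312 and 0.324 over 2 arrays. Choroid plexus, the main source of Ttr in brain, was represented by 9 genes with a probe set, of which 3 passed and none was past 2-fold. Folr1, its folate receptor, had 263 and 321. Kl, Otx2 and Kcne2 did not pass. The summed signal of that list was 353 in siControl and 409 in siCPEB1.

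Rbp4, the retinol carrier that travels in plasma bound to transthyretin, was lower in siCPEB1, in the direction opposite to Ttr. Its 1 probe set had 678 in siControl and 412 in siCPEB1, a log2 ratio of -0.72, which is 1.65-fold lower and within 2-fold. Both signals were above the array median, where the SD among probe sets of a gene was 0.30. Among the decreases it ranked 2011th of 23655. Stra6, the receptor that takes up retinol from Rbp4, had 57.9 and 78.9 (log2 ratio 0.45). The start region of Rbp4 at the outer of 2 annotated starts, chr19:38125322-38125571 (minus strand), is shown as that of the member with a ratio below 0 at signals that passed, with the same letters in capitals.
Rbp4: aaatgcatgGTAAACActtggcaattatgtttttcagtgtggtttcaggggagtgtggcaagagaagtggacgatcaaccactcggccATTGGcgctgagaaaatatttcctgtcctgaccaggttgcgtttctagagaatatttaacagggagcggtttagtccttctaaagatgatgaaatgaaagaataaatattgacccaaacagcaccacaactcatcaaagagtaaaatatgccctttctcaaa
Both matches are on the other strand, TGTTTAC from -241 to -235 and CCAAT from -162 to -158. Before the inner start the only match was TATAAA, from -28 to -23.

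Apoa1, the main protein of high-density lipoprotein, had 4 probe sets, and both signals of each lay below the array median. At 1419232_a_at they were 0.618 in siControl and 3.32 in siCPEB1, and at 1455201_x_at they were 1.03 and 3.05. At 1419233_x_at they were 0.931 and 1.06. At 1438840_x_at they were 17.5 and 13.3 (log2 ratio -0.40). Thus 3 of the ratios were above 0, and the probe set with signals closest to the median had a ratio below 0. Apob, the scaffold of very-low-density and low-density lipoprotein, had 0.911 and 4.89 at 1455593_at and 2.48 and 7.25 at 1457554_at, log2 ratios of 2.42 and 1.55. Apoe, the ligand that brings lipoprotein remnants to their receptors, had 15.5 in siControl and 6.96 in siCPEB1 at its 1 probe set, a log2 ratio of -1.15. None of these 7 probe sets passed the filter. With both signals below the median the SD among probe sets of a gene was 1.69, so these 7 ratios are imprecise. That SD is a spread between probe sets on the same arrays, not between samples.

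Ambp, whose product is cut into the carrier alpha-1-microglobulin and the protease inhibitor bikunin, had 4.97 in siControl and 8.43 in siCPEB1 (log2 ratio 0.76). It did not pass the filter.

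F13a1, the catalytic subunit of coagulation factor XIII, which crosslinks fibrin, was the member whose increase started from a siControl signal above the array median. Its 1 probe set read 46.2 in siControl against 458 in siCPEB1, a 9.92-fold higher signal (log2 ratio 3.31) and the 10th highest ratio of 23655. Both signals were above the array median, so this fold needs no bound. F13b, the carrier subunit made by liver, had 0.695 and 4.54 and did not pass. The start region of F13a1 at the outer annotated start, chr13:37050245-37050494 (minus strand), is shown for comparison with that of Afp.
F13a1: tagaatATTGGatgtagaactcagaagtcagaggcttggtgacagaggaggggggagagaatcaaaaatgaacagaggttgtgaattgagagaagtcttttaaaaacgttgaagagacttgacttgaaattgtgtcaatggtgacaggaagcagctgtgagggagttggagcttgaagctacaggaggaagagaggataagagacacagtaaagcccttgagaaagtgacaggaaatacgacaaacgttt
The only match was CCAAT, on the other strand from -244 to -240, and the inner annotated start held none of the letters searched.

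**Figure D2:**
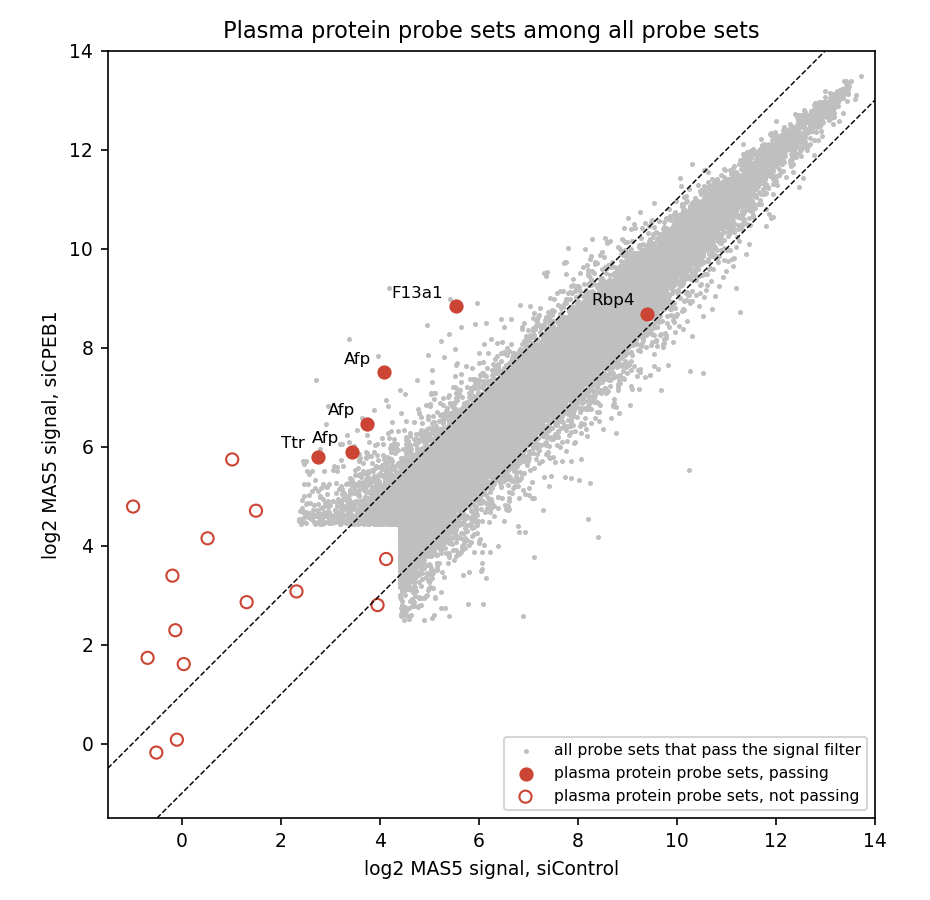
Log2 MAS5 signal in siControl (x axis) and siCPEB1 (y axis) of the 23655 probe sets that passed the filter (grey) and of the 20 plasma protein probe sets (red, filled for the 6 that passed and open for the 14 that did not), with dashed lines at 2-fold. Of the filled points, F13a1, 3 probe sets of Afp and 1 of Ttr lie above the upper line, Rbp4 lies between the lines, and the straight edges of the grey cloud come from the filter.

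Other genes of plasma proteins were taken from lists written with earlier results of these arrays known, and of the carriers and apolipoproteins most probe sets did not pass. Of 33 further liver-secreted carriers, inhibitors and acute phase proteins, 29 had a probe set, and 2 of these passed. Afm, described above, was past 2-fold at 1 of 2 probe sets, and Fetub, a protease inhibitor of the fetuin family, had 768 in siControl and 739 in siCPEB1. Over the 41 probe sets of this list the median log2 ratio was 0.39. Of 12 further apolipoproteins, all with a probe set, Apoh and Clu passed and none was past 2-fold. Apoh had 16.5 and 28.7 (log2 ratio 0.79) and 12.98 and 24.0 (log2 ratio 0.89), and Clu, a chaperone of plasma and brain, had log2 ratios from 0.38 to 0.67 at its 4 passing probe sets. Apol6 had 2.46 and 25.4 (log2 ratio 3.37, at least 1.21-fold higher) and Apoa2, of high-density lipoprotein, had 3.70 and 26.5 (log2 ratio 2.84, at least 1.26-fold higher). Neither passed, and their signals were like those of the Ttr probe set 1451580_a_at. Apod did not pass either and was lower at both probe sets, with 10.3 and 2.39 (log2 ratio -2.10) and with 8.37 and 0.960 (log2 ratio -3.12). Of the 19 probe sets of this list, 16 had a ratio above 0.

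Of 26 further coagulation genes with a probe set, 6 passed, 2 were more than 2-fold higher and 1 was lower. Vwf, the adhesive protein of platelets and endothelium, had 18.0 in siControl and 77.6 in siCPEB1 (log2 ratio 2.11, at least 3.69-fold higher). F8, the factor that Vwf carries, had 7.27 and 22.1, at least 1.05-fold higher. F3, tissue factor, had 248 and 124, which is 2.01-fold lower. Of 16 complement genes, 6 passed, with Masp1, a protease of the lectin pathway, lower at both of its passing probe sets (59.2 and 24.1, 87.7 and 36.3) and C2 at 10.3 and 22.9.

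Among 18 genes of receptors, uptake and lipoprotein assembly with a probe set, 12 passed, 2 were more than 2-fold higher and 2 were lower. Cubn, cubilin, an uptake receptor for albumin, transferrin and Apoa1, had 17.1 in siControl and 51.1 in siCPEB1 (log2 ratio 1.58, at least 2.43-fold higher) and 0.623 and 22.1 at its other probe set. Abca1, which loads lipid onto Apoa1, had 139 and 416 (log2 ratio 1.58) and 10.2 and 30.5 at another probe set, whereas its dimmest in siCPEB1 had 10.4 and 17.5. Lrp8, the Apoe receptor of neurons, had 64.2 and 28.9 (log2 ratio -1.15) at 1 probe set, and log2 ratios of -0.44 and -0.42 at the others that passed. Tfr2, a transferrin receptor, had 153 and 65.2 (log2 ratio -1.23) at 1 probe set and 128 and 96.8 (log2 ratio -0.40) at the other. Tfrc, the receptor by which most cells take up transferrin, had log2 ratios from -0.33 to -0.10 at 3 probe sets. Mttp, which loads lipid onto Apob, had 83.4 and 121, and 129 and 198, log2 ratios of 0.53 and 0.62.

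Of 22 transcription factors known to act on liver genes that had a probe set, 14 passed, 1 was more than 2-fold higher and 1 was lower. Hlf, a PAR-domain factor, had 49.1 in siControl and 141 in siCPEB1 (log2 ratio 1.52) at 1 probe set and 53.2 and 69.1 (log2 ratio 0.38) at the other. Cebpb, C/EBP beta, had 2240 and 802, and 762 and 283, log2 ratios of -1.48 and -1.43. Zhx2, a repressor of Afp after birth, had 128 and 88.6 (log2 ratio -0.53). Zbtb20, another repressor of Afp, had log2 ratios from -0.02 to 0.81 at 9 probe sets that passed. The repressors thus stayed within 2-fold, with Zhx2 lower and most Zbtb20 probe sets higher. Foxa1 had 96.9 and 149, and Foxa3 had 18.9 and 30.0. Gata4 had 164 and 310, and 68.3 and 136, within 2-fold at both probe sets. Foxa2, with 20.5 and 8.28, did not pass, both signals being below the array median, and none of 4 probe sets of Hnf4a passed.

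**Figure D3:**
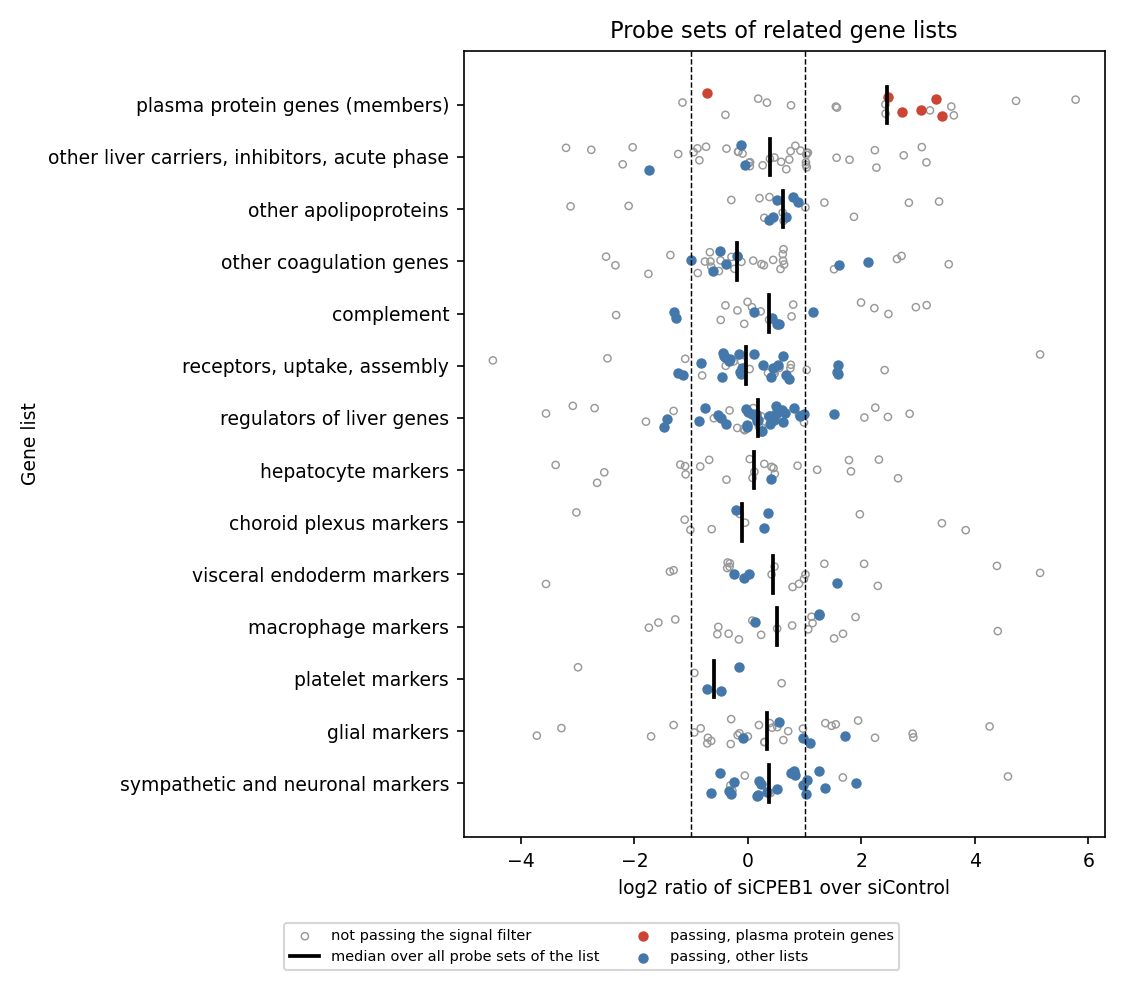
Log2 ratio of siCPEB1 over siControl (x axis) for every probe set of each gene list (y axis), filled where the probe set passed the filter and open where it did not, with black bars at the median over all probe sets of the list and dashed lines at 2-fold. The bar of the plasma protein genes is at 2.45, the bars of the other 13 lists lie between -0.60 and 0.61, and points are spread vertically within a list only to separate them.

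Markers of cells that make plasma proteins were read in the same arrays. In bulk RNA, fewer or more cells of a type and less or more RNA per cell cannot be told apart. Of 15 hepatocyte markers with a probe set, 1 passed, Tdo2, which breaks down tryptophan, with 16.5 in siControl and 21.9 in siCPEB1. Of its probe sets that did not pass, 1 had 3.88 and 24.3 (log2 ratio 2.65, at least 1.16-fold higher) and the other 3.08 and 0.488. The summed signal of that list was 150 and 164, and its highest single signal was 17.3 and 24.3, so no hepatocyte marker rose above 24.3 in either array. Of 12 genes of visceral endoderm and yolk sac, 4 passed and Cubn, shared with the receptor list, was past 2-fold. The summed signal was 6789 and 6675, of which Rhox5, a homeobox gene, made up 4414 and 4215 and Lgmn, a lysosomal protease, 2222 and 2256. The fourth gene that passed was Sox17, with 23.1 and 19.5.

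For F13a1, 16 macrophage markers and 6 platelet markers had a probe set. Of the macrophage markers 2 passed, Csf1r, the receptor of macrophage growth factor, and Tyrobp, an adaptor of myeloid receptors. Csf1r had 9.26 and 22.1 at 1 probe set (at least 1.05-fold higher) and 39.5 and 43.1 at another. Tyrobp had 9.62 and 22.8 (at least 1.08-fold higher). The summed macrophage signal was 149 in siControl and 210 in siCPEB1. Of the platelet markers 3 passed and none was past 2-fold, with Pf4, platelet factor 4, at 494 and 441 and a sum of 641 and 531. Of 12 glial genes with a probe set Mbp, a myelin protein, alone passed. It was more than 2-fold higher at 2 of 5 passing probe sets, with 11.1 and 23.7 and with 7.44 and 24.3 (at least 1.13- and 1.16-fold higher), and the summed glial signal was 267 and 366. The part of any of these cells in the ratios of Afp, Ttr and F13a1 was not tested.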

How the data were processed

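RNA of siControl- and siCPEB1-transfected Neuro2a cells was measured on 1 array each. The deposited values are MAS5 signals, an intensity on a linear scale, which the authors made with Affymetrix Expression Console per the submitters' processing notes. Of versions and the scaling target, nothing is given in the sources used here. This algorithm removes background and applies a single scale to an array. Ratios of low signals spread widely, with an SD of 1.69 between probe sets of a gene where both signals were below the median. From the signals, log2 of siCPEB1 over siControl was taken with no further scaling. Probe sets were named by the platform annotation, with symbols brought up to date in RefSeq (GRCm38.p6): 34945 probe sets had 1 symbol, 932 had several and 9160 had none listed, and 64 control probe sets were left out of counts. A call needed the signal filter and a ratio past 2-fold. Where 1 signal was below its array median, the ratio was also computed with that signal at the median ("at least"). Named were all member probe sets, of each list up to 4 genes past 2-fold, the 3 genes nearest to Afp and to Ttr, and further list genes chosen after their values were seen. Members and the 13 lists were chosen with earlier results of these data known. Alternatives were 5 other scalings (loess span 0.3), an offset of 16 on each signal, 4 other filters and other choices of probe sets. The calculation of ratios and calls was run on simulated data only as a check of the calculation, and no result rests on it. The precision of ratios from dim signals, such as those of Afp and Ttr, was not tested in that way. Python 3.11.15, numpy 2.4.6, pandas 2.3.3, statsmodels 0.14.6 and matplotlib 3.10.9 were used. The number of arrays limits the precision.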

Additional observations from a re-analysis of the deposited data

How the results depend on the processing

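Among member probe sets the lowest log2 ratio called higher was 2.47, and the other scalings kept the filter of the deposited signals. Small shifts of ratios thus could not alter the calls. The count of member probe sets more than 2-fold higher, 5, was the same under all 5 other scalings and with 16 added to both signals. It was 14 with no filter, 6 with a signal of at least 50 in at least 1 array, 2 with a signal of at least 100 (1 of Afp and that of F13a1) and 1, F13a1, with both signals at or above the median. It was 2 without probe sets ending in _x_at, _s_at or _a_at (1 of Afp and that of F13a1, and none of Ttr) and 3 with 1 probe set per gene. With dim signals raised to the median, an alternative added after the data were seen, it was 5 with the filter and 6 without. The count more than 2-fold lower, 0, was 1 (Apoe) with no filter and 0 under the other alternatives. The median log2 ratio over all member probe sets, 2.45, was 0.49 with 16 added to both signals, 2.89 over those that passed, 1.99 without the marked probe sets, and between 2.34 and 2.57 under the other scalings and with 1 probe set per gene. Of the 63 alternative ratios of the 9 single genes, 12 moved by more than 0.37, the pooled SD between probe sets of a gene that passed. Of the 12, 8 came from adding 16 to both signals, where Afp fell to 2.59, Ttr to 1.66 and F13a1 to 2.93. The same offset brought Alb from 3.59 to 0.65, Apoa1 from 2.43 to 0.22, Apob from 1.55 to 0.33 and Apoe from -1.15 to -0.455, all within 2-fold. The hybridization controls had a mean log2 ratio of -0.13, so centring on them raised every ratio by 0.13. Low signals limit the precision of all members other than Rbp4 and F13a1. Even F13a1 moved with the offset, from 3.31 to 2.93.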
